A study of Mus musculus with 20 samples.

Results

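The period genes Per1, Per2 and Per3, the cryptochrome genes Cry1 and Cry2, and Ciart encode proteins that repress the transcription factor CLOCK:BMAL1 in the circadian clock. These 6 genes of the 21768 in the deposited table were taken by symbol, each by the RefSeq transcript with the highest count summed over 10 input libraries, and all 6 were present. They were measured in livers of wild-type mice (Mus musculus) that drank water containing cadmium chloride (CdCl2), a toxic metal salt, at 100 mg/L over 3 or 9 months, and in control livers of the same times. The assay was m6A sequencing, which sequences fragments carrying a methylated adenosine after antibody pull-down, beside input RNA. The values below are RNA abundance in the input libraries: 2 controls (replicates 2 and 3) and 3 exposed livers at 3 months, and 2 controls (replicates 1 and 2) and 3 exposed livers at 9 months. Groups follow the titles and descriptions, since the treatment field of the labels holds the same words for every sample, controls included. The labels used here give no sex, age or hour of sampling and do not say whether replicates are separate animals, so p-values measure only the spread between these samples.

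In the mammalian clock, CLOCK and BMAL1 (gene Arntl) bind E-boxes and drive transcription of the Per, Cry and Ciart genes, whose protein products then act back on CLOCK:BMAL1. PER and CRY proteins form a complex in which CRY is the main transcriptional repressor, while Ciart (also called Chrono) encodes a repressor that binds BMAL1. In liver these transcripts rise and fall each day under the clock, and the D-box activators Dbp, Tef and Hlf, the D-box repressor Nfil3 and the REV-ERB and ROR nuclear receptors add further control. Because their levels turn with the hour, the hour of sampling bears on every level below. It is not in the labels used here, and its part in the results was not tested.

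Promoter sequence was taken from RefSeq (GRCm38.p6) for Per1, Per3, Cry1, Cry2 and Ciart, which is 5 of the 6 genes and 6 windows, as that table gives 2 starts for Per1. Each window is the 250 bases before the start, read 5′ to 3′ on the strand of the gene. The transcript used for the counts starts at the same base for Cry1 and Cry2, but 48 bases further upstream for Per3, 14 for Ciart, and 2396 and 3599 for the Per1 windows, which therefore lie inside the span of the Per1 transcript used. The count table lists Per1 transcripts with 4 different starts. The windows were searched on both strands for the E-box CACGTG, the related E-prime box CACGTT, the D-box written as TTANNTAA, the ROR element core AGGTCA and the cAMP response element TGACGTCA. These motifs do not overlap in the windows shown, and capitals mark every match. The windows of Per3 and Ciart are shown because those transcripts were near or at 0 in the 3-month controls, and those of Per1 and Cry1 because they carry E-boxes but did not pass the test in any comparison.
Per3, chr4:151044666-151044915, minus strand: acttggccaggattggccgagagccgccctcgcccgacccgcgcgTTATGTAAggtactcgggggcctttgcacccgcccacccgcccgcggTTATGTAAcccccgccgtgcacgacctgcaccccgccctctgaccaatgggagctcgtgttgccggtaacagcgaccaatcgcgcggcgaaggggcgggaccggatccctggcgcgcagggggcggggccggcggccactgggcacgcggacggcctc
Ciart, chr3:95882229-95882478, minus strand: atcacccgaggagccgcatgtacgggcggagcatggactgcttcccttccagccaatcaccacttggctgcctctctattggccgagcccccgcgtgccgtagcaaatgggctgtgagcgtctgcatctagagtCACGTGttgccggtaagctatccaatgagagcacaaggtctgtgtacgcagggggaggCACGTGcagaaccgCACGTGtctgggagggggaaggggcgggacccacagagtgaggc
Per1, chr11:69098699-69098948, plus strand: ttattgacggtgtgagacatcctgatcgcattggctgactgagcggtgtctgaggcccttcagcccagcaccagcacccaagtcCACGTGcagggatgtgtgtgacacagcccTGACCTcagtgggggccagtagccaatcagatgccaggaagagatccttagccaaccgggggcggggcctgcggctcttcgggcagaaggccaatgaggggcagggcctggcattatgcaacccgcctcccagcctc
Cry1, chr10:85185055-85185304, minus strand: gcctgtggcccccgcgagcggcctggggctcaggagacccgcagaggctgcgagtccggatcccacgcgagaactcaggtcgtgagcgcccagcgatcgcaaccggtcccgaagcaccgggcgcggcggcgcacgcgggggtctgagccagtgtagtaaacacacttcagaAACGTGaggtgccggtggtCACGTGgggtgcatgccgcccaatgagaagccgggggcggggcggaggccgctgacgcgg

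The Per3 window holds 2 copies of the D-box TTATGTAA and none of the other motifs. At least 2 D-boxes occur in 0.445% of the 32817 mouse windows of this length in the table, and at least 1 in 5.43%. The Ciart window holds 3 E-boxes, found at 116 to 111, 58 to 53 and 44 to 39 bases before the start, and at least 3 E-boxes occur in 20 windows, or 0.0609%. The first Per1 window has 1 E-box and 1 reverse-strand copy of the ROR element core (TGACCT), and the second, at chr11:69099902-69100151, has no match. Cry1 has 1 E-box and 1 reverse-strand E-prime box (AACGTG), and the Cry2 window at chr2:92434070-92434319 has 1 E-prime box and no E-box. The E-box alone is in 6.02% of all windows, the E-prime box in 3.85%, the ROR element core in 14.0% and the cAMP response element in 1.55%. A match is a description of letters in the window and not evidence that a factor binds there.

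Input libraries held 3958164 to 8912898 counts over the chosen transcripts of all genes, with 12730 to 16519 genes detected. Counts were scaled to CPM (counts per library total of 1000000) after TMM normalisation, and 3 counts, used as the floor per library, equal 0.352 to 0.663 CPM. Floors and count intervals cover counting error only. All 6 genes passed the filter on low counts, Ciart only through its exposed livers, and 14067 genes were tested. The 3-month controls stood apart from the rest: across genes, which are no replicates, their log2 CPM correlated at 0.846 with each other and at a median of 0.871 and 0.886 with remaining libraries. For the other 8 libraries that median was 0.919 to 0.937. The 3-month fold changes of Per3, Per1, Dbp and Tef are given below without each of these controls. Other results that rest on them are not all given in that way. The livers expressed 11 of 12 listed hepatocyte genes, at a summed 93424 to 135910 CPM. In bulk tissue, fewer cells of a type and less RNA per cell cannot be told apart.

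Per3, a period gene that is dispensable for behavioural rhythms in mice, was almost absent from 3-month controls and present in every other liver. The 3-month controls held 0.21 and 0 CPM, and the exposed livers 12.7, 43.7 and 71.6 CPM. After 9 months it was at 5.09 and 8.35 CPM in controls and at 43.0, 50.1 and 35.2 CPM in exposed livers. The exposed livers lay above the controls at both times with no overlap. Behind the 3-month values stand 1 count in controls and 952 in exposed livers, a ratio of 584 with an exact 95% interval of 105 to 23082. The fitted log2 fold change was 8.78 ± 1.04 (SE; n = 2 controls and 3 exposed livers), with an adjusted p of 0.00643 in edgeR's quasi-likelihood test. Per3 therefore passed as higher in exposed livers than in controls at 3 months, as 0.0355% of all genes did. It passed without any 1 of the 10 libraries, with a log2 fold change of 11.15 without control 2 and 7.53 without control 3. It did not pass with limma voom (adjusted p = 0.892) or when the 5 libraries of 3 months were fitted alone (adjusted p = 0.266).

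At 9 months the Per3 log2 fold change was 2.65 ± 0.63 (95% interval 1.30 to 4.01), with an unadjusted p of 0.000936 and an adjusted p of 1. No gene of the 14067 passed in this comparison (0.0% in either direction), where 316 had an unadjusted p under 0.05. Limma voom called 3 genes there and DESeq2 called 7, Per3 among these (adjusted p = 0.0420). The mean exposure effect over both times was 5.72 ± 0.61 (adjusted p = 0.00203), which also passed, with 0.0284% of genes called higher. The effects at the 2 times differed by -6.13 ± 1.24 (9 minus 3 months, unadjusted p = 0.000235, adjusted p = 0.418). That difference did not pass, except without 3-month control 2 (adjusted p = 0.0163), with DESeq2 (adjusted p = 0.0346) or with no filter on low counts (adjusted p = 2.36e-08).

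The same 3-month controls enter the comparison of times. In controls, Per3 was higher at 9 than at 3 months, with 86 counts against 1, a ratio of 94.6 (95% interval 16.5 to 3780) and an adjusted p of 0.0307, in a comparison that called 0.931% of genes higher. This call was kept in 5 of the 10 fits that each left out 1 library. It was lost without exposed liver 2 at 3 months, exposed liver 1 or 3 at 9 months, or control 1 or 2 at 9 months, where the adjusted p reached 0.173. It was also lost with summed transcripts (adjusted p = 0.0552), voom (0.676), the groups alone (0.408), the replicate block (0.0683) and without the 2 libraries richest in pancreas RNA (0.305). In exposed livers the fitted difference between 9 and 3 months was 0.00 ± 0.49 on the log2 scale, with a 95% interval of -1.06 to 1.07.

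Per1, a period gene that also responds quickly to glucocorticoids and cAMP, did not separate the groups at 3 months. Its level was 12.4 and 46.7 CPM in controls of that time, against 11.7, 40.9 and 47.6 CPM in exposed livers. The 9-month controls held 11.9 and 38.1 CPM and the exposed livers 45.4, 55.3 and 51.3 CPM in exposed livers. Thus 1 liver in each of 3 groups lay near 12 CPM and the other 7 livers between 38.1 and 55.3 CPM. The exposed livers of 9 months were the only group with no low liver, and they lay above both of their controls. The log2 fold changes were 0.17 ± 0.61 at 3 months (95% interval -1.16 to 1.49, adjusted p = 0.933) and 1.01 ± 0.63 at 9 months (-0.35 to 2.37, adjusted p = 1). The 3-month value changed sign with the library left out: it was -0.48 without control 2, 0.00 without exposed liver 2, -0.18 without exposed liver 3 and 1.43 without control 3. The 9-month value was 0.42 without control 1 and 2.07 without control 2.

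Per2, the period gene whose loss most disturbs rhythms in mice, was measured in 3-month controls at 8.01 and 4.81 CPM, and in exposed livers at 5.55, 6.82 and 28.7 CPM. The 9-month values were 3.32 and 5.17 CPM in controls and 21.2, 28.1 and 11.6 CPM in exposed livers. At 3 months only exposed liver 3 was above the control range, and at 9 months all 3 exposed livers were. The log2 fold change was 1.10 ± 0.71 at 3 months (95% interval -0.43 to 2.64, adjusted p = 0.499) and -0.04 without exposed liver 3. The 9-month value was 2.24 ± 0.75 (0.62 to 3.86), with an unadjusted p of 0.0103 and an adjusted p of 1. Averaged over both times it was 1.67 ± 0.52 (adjusted p = 0.418). That mean passed only with no filter on low counts (adjusted p = 0.0195).

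Cry1, the cryptochrome whose peak comes late in the clock's repressive phase, was the only one of the genes with lower values in every exposed liver than in every control at 9 months. Controls of 3 months held 1.90 and 11.7 CPM, and exposed livers held 1.35, 5.18 and 15.0 CPM. Controls of 9 months held 11.7 and 14.5 CPM, and exposed livers held 11.5, 10.3 and 7.03 CPM. The 9-month groups were separated by only the gap between 11.7 and 11.5 CPM. The log2 fold changes were 0.06 ± 0.86 at 3 months (95% interval -1.78 to 1.90, adjusted p = 0.991) and -0.45 ± 0.84 at 9 months (-2.26 to 1.37, adjusted p = 1). The 3-month value ran from -1.07 without exposed liver 3 to 1.92 without control 3.

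Cry2, the partner cryptochrome, was the most even of the genes. Levels at 3 months were 27.8 and 22.5 CPM in controls and 31.2, 44.2 and 32.4 CPM in exposed livers. Those at 9 months were 18.4 and 29.8 CPM in controls and 34.8, 53.1 and 49.6 CPM in exposed livers. The exposed livers were above the controls at both times with no overlap, by small amounts. The log2 fold change was 0.52 ± 0.34 at 3 months (95% interval -0.21 to 1.25, adjusted p = 0.508) and 0.92 ± 0.34 at 9 months (0.18 to 1.66, unadjusted p = 0.0184, adjusted p = 1). The mean over both times was 0.72 ± 0.24 (adjusted p = 0.484).

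Ciart, which encodes the BMAL1-binding repressor, had no count in either 3-month control. In exposed livers of 3 months it stood at 1.95, 0.82 and 11.6 CPM, from 108 counts in all. The 9-month controls held 0.44 and 0.40 CPM, from 5 counts, and the exposed livers 2.35, 28.8 and 3.31 CPM, from 213 counts. In each exposed group 1 liver, liver 3 at 3 months and liver 2 at 9 months, held most of the signal, and all exposed livers were above all controls of their time. Against the floor of 3 counts per library, Ciart was at least 9.76-fold higher in exposed livers at 3 months (adjusted p = 0.157), and at least 2.81-fold without exposed liver 3. At 9 months the count ratio was 29.3 (95% interval 12.4 to 91.2) and the log2 fold change 4.72 ± 1.59 (unadjusted p = 0.0111, adjusted p = 1). Without exposed liver 2 the 9-month log2 fold change was 2.70. DESeq2 called Ciart at 3 months (adjusted p = 0.00906), as did the fit with no filter on low counts (adjusted p = 0.000711), and without 3-month control 2 its mean effect over both times passed (adjusted p = 0.0345). Between control times it was at or under the floor in both groups, so no fold is given.

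**Figure D1:**
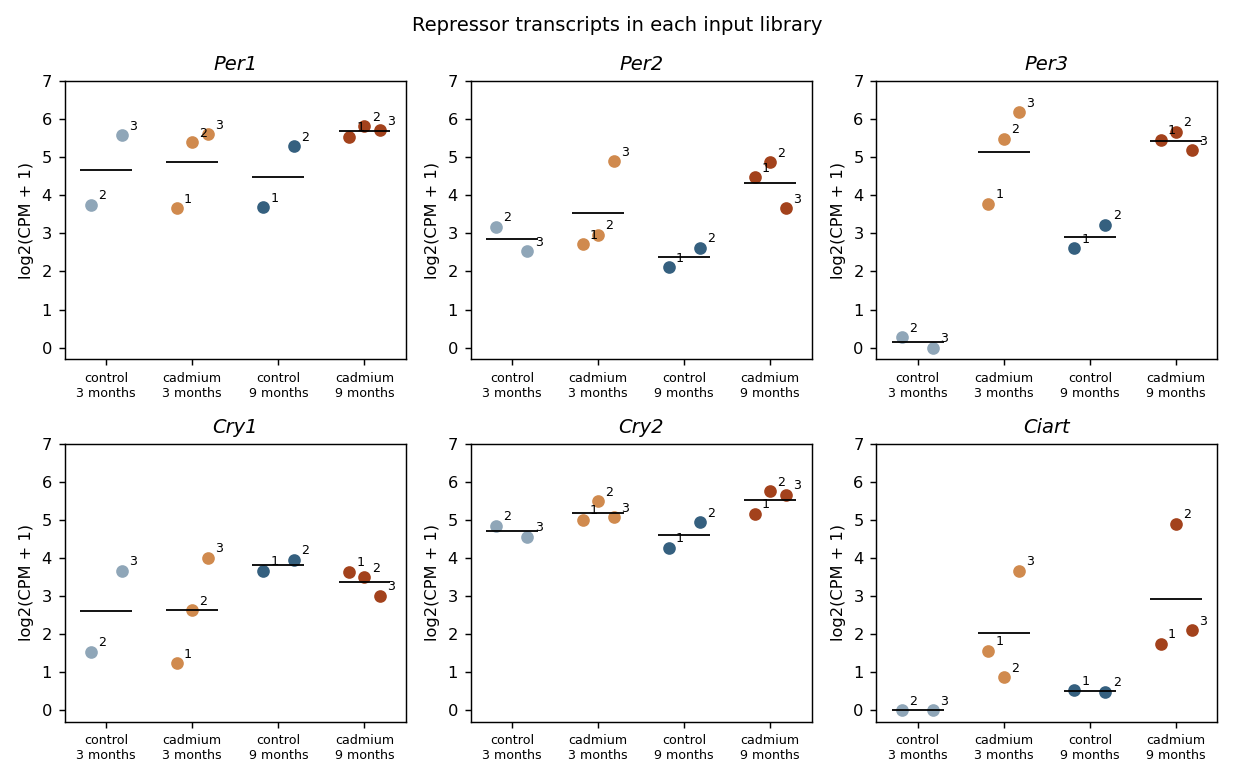
Scaled abundance, log2(CPM + 1), of each of the 6 genes in the 10 input livers, by exposure and time. Points are livers with their replicate number and lines are group means of the logged values. Per3 and Ciart sit at or near the bottom in the 3-month controls, and every group but the exposed livers of 9 months has 1 liver low in Per1, at 11.7 to 12.4 CPM.

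Set against all genes, 1 of the 6 passed as higher at 3 months, where 0.0355% of all genes did. At 9 months 0 passed as higher, where 0.0% of all genes did. None passed as lower at either time, where 0.0142% of all genes did at 3 months and 0.0% at 9 months. Values did not overlap, with exposed livers higher, for Per3, Cry2 and Ciart at 3 months, which is 3 of 6 where 13.9% of all genes tested did the same. At 9 months this held for Per1, Per2, Per3, Cry2 and Ciart, which is 5 of 6 where 10.3% of all genes did, and Cry1 was lower without overlap, as were 11.8% of all genes. The median log2 fold change of the 6 genes was 0.81 at 3 months and 1.62 at 9 months, against 0.01 over all genes at each time. Between control times Per3 was higher without overlap, as were 26.1% of all genes, Ciart was at or under the floor and is not counted, and none was lower without overlap, as were 2819 of the 14067 genes. No member separated the exposed livers of 3 and 9 months, where 7.23% of genes were higher and 6.76% lower without overlap. Fitted values above 0 numbered 6 of 6 for exposure at 3 months, 5 at 9 months, 5 for their mean, 3 for their difference, 3 for time in controls and 6 for time in exposed livers. The shares of all genes above 0 were 50.6%, 50.7%, 51.3%, 48.9%, 52.1% and 50.3%, in that order. These counts describe genes chosen with earlier results known, and Ciart entered them only through its exposed livers. The plot of fold changes shows that the intervals of Per1 and Cry1 span 0 at both times.

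**Figure D2:**
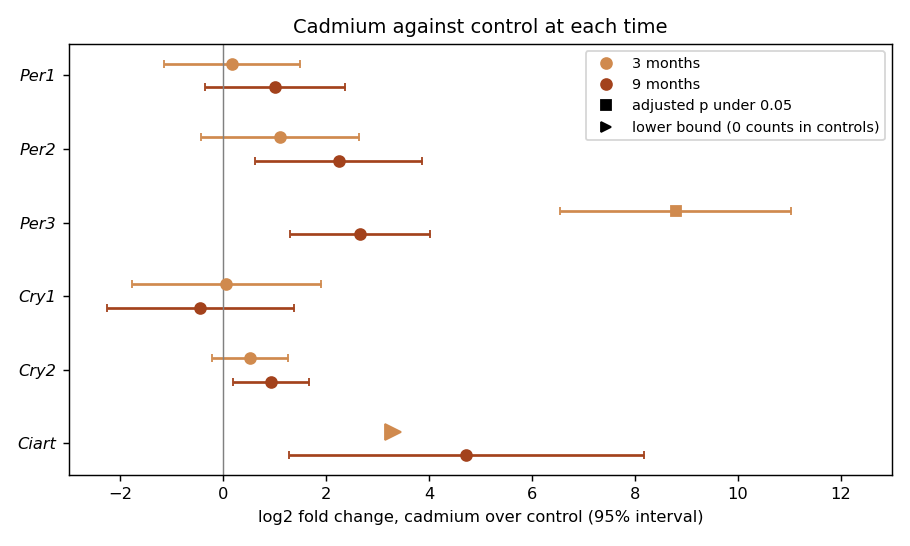
Log2 fold change of cadmium over control for each gene at 3 months (light) and 9 months (dark), with 95% intervals from the edgeR fit; the square passed the adjusted threshold of 0.05, and the triangle is a lower bound for Ciart, which had 0 counts in 3-month controls. The square, Per3 at 3 months, lies at 8.78, and every other interval drawn belongs to a value that did not pass.

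Markers of other cells moved with some groups. The summed level of 10 Kupffer cell and macrophage genes, all in the table, was 250 to 315 CPM in 9-month controls and 343 to 515 CPM in exposed livers, without overlap, and 213 to 253 against 230 to 396 CPM at 3 months, with overlap. Exocrine pancreas RNA (14 of 15 listed genes in the table) was 33.7 to 261 CPM in 3-month controls and 8.55 to 24.3 CPM in exposed livers, without overlap, and its part in the 3-month results was not tested. It reached 10000 CPM in control 2 and 1961 CPM in exposed liver 1 at 9 months. Without these 2 libraries the 9-month log2 fold change was 3.05 for Per3 and 5.11 for Ciart, and Per3 at 3 months kept an adjusted p of 0.0168. Summed erythroid genes (6, Hba-a2 at 0) were at 102 to 153 CPM in 9-month controls and 56.6 to 97.1 CPM in exposed livers, without overlap, and overlapped at 3 months. Endothelial (7 genes, 343 to 430 CPM), stellate (7, 281 to 370 CPM), cholangiocyte (6, 10.1 to 61.1 CPM) and lymphocyte markers (8, Cd79a at 0, 1.58 to 12.3 CPM) overlapped between control and exposed livers at both times. The part of macrophage and erythroid RNA in the 9-month values was not tested.

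Within the 3-month exposed group, 4 of the 6 genes had the same order over livers. Per1, Per2, Per3 and Cry1 were each lowest in liver 1, intermediate in liver 2 and highest in liver 3. Cry2 was highest in liver 2, and Ciart was lowest in liver 2 and highest in liver 3. Arntl, the gene of BMAL1, ran the other way in the same livers, at 13.6, 6.14 and 0.52 CPM, as did Clock, at 221, 132 and 97.2 CPM. The D-box activators went with the Per genes: Dbp stood at 10.2, 17.1 and 31.7 CPM and Tef at 99.6, 146 and 296 CPM. Nfil3, at 5.40, 30.6 and 8.77 CPM, and the REV-ERB gene Nr1d1, at 54.4, 84.9 and 63.2 CPM, followed neither order. Adipose marker RNA (6 of 6 listed genes in the table) summed to 74.5 CPM in liver 1 of this group and to 2.11 to 13.9 CPM elsewhere, and its part in the order was not tested. Replicates have no order of their own, and this pattern is given as a description of 3 livers. The share of all genes with this order was not counted. The genes set beside the 6 here were picked after their values were seen.

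Levels of different genes can be set side by side only per length, in the deposited TPM, a length-scaled abundance that sums to 1000000 in each library. Over all 10 livers the mean TPM was highest for Cry2 (6.77 ± 2.28, SD), followed by Per1 (4.02 ± 1.92), Per3 (2.54 ± 2.33), Cry1 (2.39 ± 1.33), Per2 (1.79 ± 1.40) and Ciart (1.45 ± 2.59), and every neighbouring pair overlapped in range. Within groups the order moved. In 3-month controls it was Cry2 (4.84 TPM), Per1 (3.15), Cry1 (1.69), Per2 (0.93), Per3 (0.01) and Ciart (0), and only the step from Per2 to Per3 was without overlap. In exposed livers of 3 months Per3 came second at 3.94 ± 2.83 TPM, not separated from Cry2 above or Per1 below. With curated transcripts it stood below Per1 there, at 4.63 against 4.90 TPM. In 9-month controls the steps from Cry2 to Cry1, from Per1 to Per3 and from Per2 to Ciart were without overlap, with Per3 at 0.70 ± 0.17 TPM. In exposed livers of 9 months the steps from Cry2 (9.13 ± 2.24 TPM) to Per1 (5.70 ± 0.76) and from Per1 to Per3 (4.05 ± 0.40) were, and Ciart, Per2 and Cry1 followed without separation.

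The makeup of the period RNA pool differed by group on this TPM scale. Per3 made up 0.772% and 0% of summed Per1, Per2 and Per3 TPM in 3-month controls, and 36.3%, 42.6% and 41.6% in exposed livers. Its 9-month share was 20.9% and 13.7% in controls against 33.3%, 31.5% and 31.0% in exposed livers. The exposed share was above the control share in every liver at both times. The summed period TPM was 2.61 and 5.56 in 3-month controls and 2.91, 9.51 and 16.2 in exposed livers, which overlap, and 2.76 and 5.98 against 11.8, 14.2 and 12.01 at 9 months, which do not. Cry1 made up 45.9% and 39.1% of summed Cry1 and Cry2 TPM in 9-month controls and 30.4%, 20.4% and 15.8% in exposed livers. At 3 months the Cry1 share was 8.30% and 40.9% in controls and 5.43%, 13.5% and 38.1% in exposed livers, with full overlap.

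**Figure D3:**
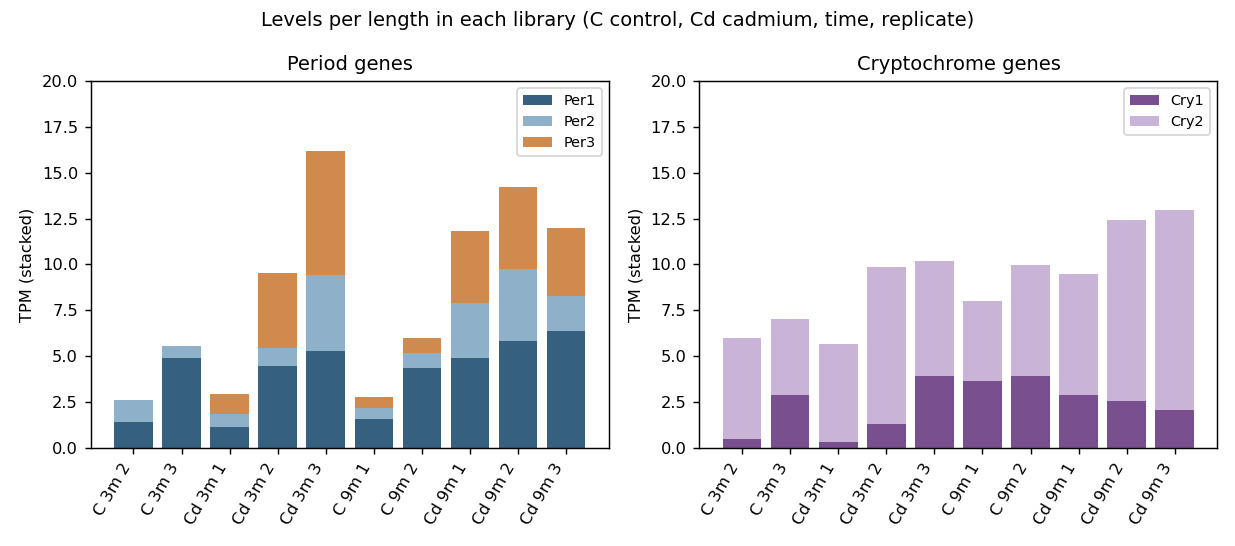
Deposited TPM of Per1, Per2 and Per3 (stacked bars from 0), and of Cry1 and Cry2, in each input liver by group. The Per3 segment is missing or barely visible in 3-month controls and is 31.0% to 42.6% of the period bar in exposed livers.

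The table lists 27 transcripts of the 6 genes, and as isoforms overlap and the read counter is not known, their values are not taken as independent. Per3 has 11 transcripts, and in 3-month controls 10 of these had 0 counts while the chosen XM_017320034.1 had 1. All 4 Ciart transcripts had 0 counts there. Transcript totals over the 10 libraries ran from 498 to 1800 for Per3, 168 to 326 for Ciart, 2218 to 2427 for Per1 (4 transcripts), 779 to 808 for Per2 (3) and 504 to 605 for Cry1 (3). Cry2 has 2, of which NM_009963.4 had 2210 counts and the other 708. In the coordinates of the table, which lie on the GRCm38 loci of all 6 genes, the chosen transcripts were at chr11:69096553-69109965 (Per1), chr1:91415977-91445986 (Per2), chr4:151003657-151044713 (Per3), chr10:85131700-85185054 (Cry1), chr2:92403646-92434069 (Cry2) and chr3:95878500-95882242 (Ciart).

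**Figure D4:**
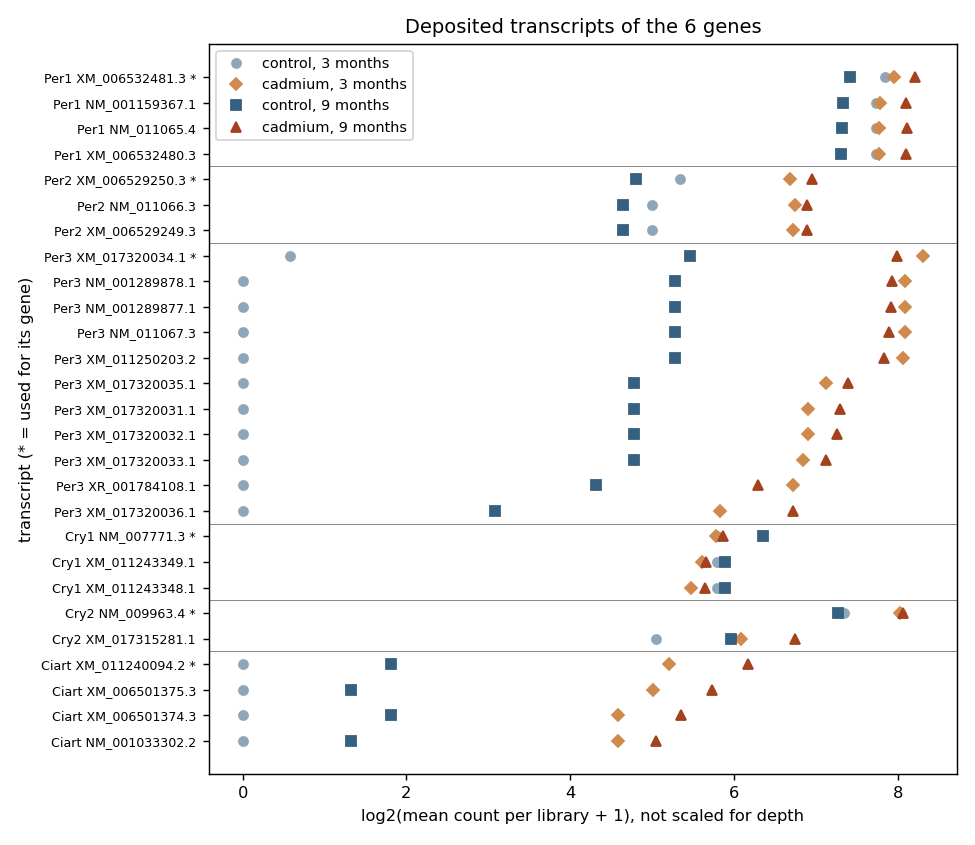
Mean count per library, as log2(mean + 1) and not scaled for depth, of each of the 27 listed transcripts in each of the 4 groups; stars mark the transcripts used. All Per3 and Ciart transcripts sum to 0 or 1 counts in the 3-month controls, whichever isoform is taken.

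Among the other clock genes, the 3 activators tested had log2 fold changes below 0 at both times, but none passed at either time. Of all genes, 50.6% were above 0 at 3 months and 50.7% at 9 months. Arntl levels in the 3-month controls, where Per3 and Ciart were near 0, were 102 and 82.7 CPM, against 0.52 to 13.6 CPM in exposed livers (log2 fold change -3.77 ± 0.83, adjusted p = 0.0859). At 9 months Arntl was at 12.6 and 23.7 CPM in controls and 4.86, 4.90 and 0.83 CPM in exposed livers. Npas2, a CLOCK paralogue, was at 3.32 and 4.77 CPM in 9-month controls and had no count in the 3 exposed livers. It passed the filter on low counts only through control livers. At 3 months Npas2 overlapped, at 0.21 and 3.75 CPM in controls against 0 to 0.82 CPM in exposed livers. Clock also overlapped at 3 months, at 211 to 401 CPM against 97.2 to 221 CPM. Of the PAR bZip activators and Nfil3, a list of 4, 2 passed as higher at 3 months, where 0.0355% of all genes did, and 0 at 9 months. These were Dbp (log2 fold change 7.65 ± 0.94, adjusted p = 0.00643) and Tef (2.77 ± 0.44, adjusted p = 0.0477). Dbp was at 0.21 and 0 CPM in the 3-month controls, under the floor, so the size of its fold change there is uncertain. Like Ciart, Dbp passed the filter on low counts only through its exposed livers. The 3-month log2 fold changes of Dbp and Tef were 10.03 and 2.64 without control 2, and 6.42 and 2.94 without control 3. Neither Dbp nor Tef passed with voom (adjusted p = 0.807 and 0.326) or with the 3-month libraries alone (adjusted p = 0.273 and 0.415). Tef also missed the threshold at 3 months with the 5 CPM filter, summed transcripts, the replicate block (adjusted p = 0.0719) and without the pancreas-rich libraries, or without exposed liver 2 or 3 of 3 months or any exposed liver of 9 months (adjusted p up to 0.105). Both also passed as the mean of both times, at 5.93 ± 0.58 for Dbp and 2.34 ± 0.31 for Tef, though Dbp did not with voom (adjusted p = 0.451), nor Tef with summed transcripts (adjusted p = 0.0537) without the pancreas-rich libraries (adjusted p = 0.127) or without 9-month control 1 or 2 (adjusted p = 0.0501 and 0.056). The D-box repressor Nfil3 measured 81.2 and 187 CPM in controls at 3 months and 5.40, 30.6 and 8.77 CPM in exposed livers (adjusted p = 0.0730). The same controls that lacked Per3 thus had the most Arntl and Nfil3 of all 10 livers and the least Dbp and Tef.

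The remaining repressors and receptors did not pass for exposure. Of the REV-ERB and ROR receptors, 4 of 5 were tested and 0 passed at either time. Nr1d2 was at 184 and 141 CPM against 266, 319 and 434 CPM at 3 months and at 137 and 114 CPM against 304, 449 and 293 CPM at 9 months (log2 fold change 1.06 ± 0.32 and 1.48 ± 0.32). Nr1d1 was at 17.3 and 21.1 CPM against 54.4, 84.9 and 63.2 CPM at 3 months, and overlapped at 9 months. Rora, an activator at ROR elements, was at 416 and 493 CPM in controls of 3 months against 223, 213 and 311 CPM in exposed livers, lower without overlap as were 11.9% of all genes (adjusted p = 0.195). At 9 months the order was turned by value, at 170.95 and 171.33 CPM in controls against 185 to 274 CPM. Rora was then higher without overlap, as were 10.3% of all genes. That log2 fold change was 0.39 ± 0.28 (unadjusted p = 0.187 in the edgeR test) and did not pass. Between control times its log2 fold change was -1.41 ± 0.31 (adjusted p = 0.0446, where 0.96% of genes passed as lower), and this call was lost with summed transcripts, voom, the groups alone, the replicate block (adjusted p = 0.149), without the pancreas-rich libraries, and without any 1 library other than a 3-month control (adjusted p up to 0.323). Of the DEC repressors, which compete at E-boxes, Bhlhe40 measured 10.8 and 30.7 CPM in controls at 3 months and 66.3, 83.5 and 114 CPM in exposed livers (adjusted p = 0.0845), and neither Bhlhe40 nor Bhlhe41 passed at either time.

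**Figure D5:**
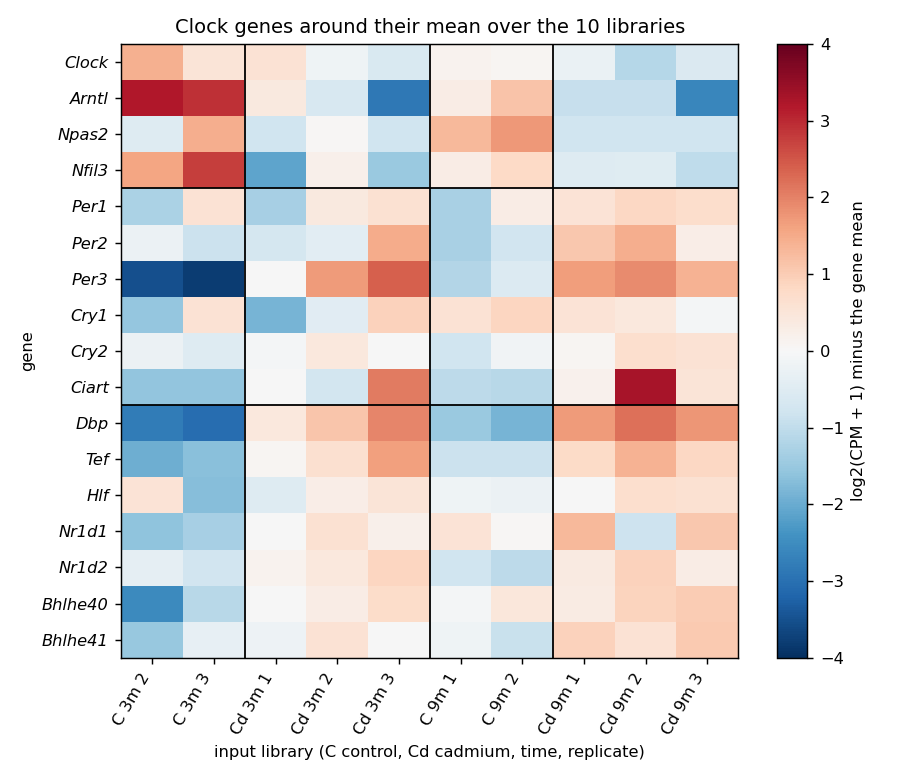
Colour gives log2(CPM + 1) of the 6 genes and of other clock genes (rows) in each of the 10 livers (columns), minus the mean of the gene over livers. The 3-month controls stand out with low Per3, Dbp and Tef and high Arntl and Nfil3, while Ciart was low in the controls of both times.

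Among genes that act on PER and CRY proteins, none passed for exposure. Of 24 listed kinases, ubiquitin ligases, proteases and partners, all 24 were tested, 0 passed at either time, and 12 at 3 months and 15 at 9 months had a log2 fold change above 0 (50.6% and 50.7% of all genes). Their medians were 0.00 and 0.15. Among those with the smallest p at 3 months were Fbxw11, a ubiquitin ligase subunit that targets PER (-0.79 ± 0.29), and the ligase scaffold Cul1 (-0.55 ± 0.29). At 9 months they were the kinase subunit Prkaa1 (0.63 ± 0.36), the deubiquitinase Usp2 (3.73 ± 1.53) and the phosphatase subunit Ppp1cb (0.35 ± 0.26).

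Listed liver outputs of E-boxes or D-boxes numbered 10, all tested, with 0 passing for exposure at either time. Of these, 6 at 3 months and 9 at 9 months had a log2 fold change above 0 (50.6% and 50.7% of all genes). Their medians were 0.27 and 1.33, against 0.01 over all genes at each time. At 9 months Wee1, a cell cycle kinase, was at 2.21 and 6.37 CPM in controls and 13.8, 40.0 and 22.7 CPM in exposed livers. Usp2, which stands in both lists, was at 1.11 and 2.65 CPM against 12.2, 51.0 and 14.3 CPM. Gys2, the liver glycogen synthase, was at 125 and 183 CPM against 255, 471 and 312 CPM. Nampt, which makes a precursor of NAD, was at 49.98 and 54.2 CPM against 112, 255 and 75.5 CPM. In these 4 of the 10 genes the exposed livers were higher without overlap, where 10.3% of all genes were, and the other 6 overlapped. At 3 months only Gys2 of the 10 was higher without overlap, where 13.9% of all genes were. At 9 months the highest was exposed liver 2 in all 4, as it was in Per1, Per2, Per3, Cry2 and Ciart.

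Genes induced by stimuli or glucocorticoids, as Per1 is, were listed beside it. Of 12 listed, 11 were tested and 0 passed for exposure at either time. Of the 11, 5 at 3 months and 4 at 9 months were above 0 (50.6% and 50.7% of all genes). Between control times 3 passed as higher at 9 months, the immediate early genes Fos, Jun and Ier2 (adjusted p = 0.0421, 0.0307 and 0.0326), where 0.931% of all genes did. None of the 3 passed with summed transcripts, voom, the groups alone or the replicate block (adjusted p = 0.157, 0.0907 and 0.0907), and without the pancreas-rich libraries only Fos did. Fos was at 70.3 CPM in 9-month control 1 and at 1.05 to 7.74 CPM in the other 9 livers. Without that control the log2 fold changes were 2.01, 1.89 and 2.67, against 5.11, 2.56 and 3.09 with it. Without 9-month control 2 they were 6.07, 3.06 and 3.48. Each of these fits leaves 1 control at 9 months, so no call is given from it, and the calls rest on both controls. None of the 3 passed without exposed liver 1 or 2 of 3 months or exposed liver 3 of 9 months (adjusted p = 0.0502 to 0.0768). Fos also missed the threshold when any other 1 exposed liver was left out, and Jun without exposed liver 1 of 9 months. In 9-month control 1, Per1 was at 11.9 CPM, among the lowest of the 10 livers.

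By Pearson correlation of log2(CPM + 1) over the 10 livers, among 13071 genes, the nearest to Per3 were Tef (r = 0.969), Sdhc, a subunit of succinate dehydrogenase (0.960), Dbp (0.958), Gm15411 (0.947) and Athl1 (0.935). Without the 3-month controls, the libraries farthest from the Per3 median, r was 0.962 for Tef, 0.934 for Dbp and 0.878 for Sdhc. Nearest to Per1 were Usp11 (0.958), Herpud1, Mtr, Klf15 and Cyp2a5, and nearest to Per2 were 2310015A16Rik (0.951), Narf, Slco2b1, Gsap and Magt1. Nearest to Cry1 were 1810064F22Rik (0.958), Ern1, Gm26596, Cdk9 and Dip2b. Nearest to Cry2 were Fkbp9 (0.907), Fancl, Ugp2, Fbxw2 and Ddx60. Nearest to Ciart were Fmo5 (0.909), Bach1, Zfp970, Magt1 and Intu, and without its highest 2 livers r for Fmo5 was 0.645. No list of 5 named another of the 6 genes, and these values are descriptions over 10 livers that share groups and depth.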

How the data were processed

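The deposited table holds counts per RefSeq transcript and deposited TPM for the input libraries, per the file headers. Per the submitters' processing notes, bcl2fastq, TopHat2 2.0.13 and MACS2 2.1.0.20151222 were used, with builds hg19, mm10 and rn6 listed without roles. Which read counter, strand setting and annotation was used is not given in the sources used here. A further 12 value columns match no sample and were not used, and the 10 pull-down samples were not analysed here.

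Each gene took its transcript with the highest count over the 10 libraries. Counts were filtered (filterByExpr), scaled by TMM and fitted with edgeR 4.0.16 (quasi-likelihood, R 4.3.3) over all 4 groups, with two-sided p adjusted by Benjamini-Hochberg over 14067 genes at a threshold of 0.05. SE and 95% intervals come from that fit. Count ratios have exact binomial intervals. The script was tested on simulated data. DESeq2 1.42.0, limma 3.58.1, other filters, summed transcripts, the groups alone, a replicate block and leaving out libraries were alternatives. Python 3.11.15 with pandas 2.3.3 and scipy 1.17.1 did the rest. Named from each list were all genes past the threshold, else the 3 with the smallest p, and the text describes some of these (1 gene is not reported here), with others beside the 6 genes chosen after their values were seen. The alternatives given for these other genes, the level order with curated transcripts and the Ciart bound without a liver were added after seeing the data. The genes and lists were chosen with earlier results of these data known.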

Additional observations from a re-analysis of the deposited data

How the results depend on the processing

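Of the alternative values of single genes, 631 kept direction and side of the threshold, 12 newly passed, 13 no longer passed and 27 changed sign, all among values that did not pass. At 3 months 1 of the 6 genes passed, and 2 did with DESeq2 and with no filter on low counts, 0 with limma voom and 0 with the 2 groups alone. At 9 months 0 passed, against 1 with DESeq2 and 2 with no filter. For the difference of effects 0 passed, against 1 with each of those. For the mean effect 1 passed, against 2 with DESeq2, 3 with no filter and 0 with voom. Between control times 1 passed, against 0 with summed transcripts, voom, the groups alone, the replicate block and the fit without the 2 libraries richest in pancreas RNA.

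Genes called at 3 months numbered 7, against 465 with DESeq2, 502 with no filter, 11 with summed transcripts, 2 with voom, 0 with the groups alone and 4 without the pancreas-rich libraries. At 9 months 0 were called, against 7, 76 and 3 with DESeq2, no filter and voom, 1 with the groups alone and 1 without both 3-month controls. For the difference 0 were called, against 39 and 208 with DESeq2 and no filter. For the mean effect 9 were called, against 112 and 243, 4 with at least 5 CPM in 2 libraries, 3 with summed transcripts and 3 without the pancreas-rich libraries. Between control times 266 were called, against 1220, 1073 and 435 with DESeq2, no filter and the 5 CPM filter, 0 with summed transcripts, voom or the groups alone, and 1 without the pancreas-rich libraries. Between exposed times 0 were called, against 11, 96 and 3 with DESeq2, no filter and voom, 4 with the groups alone and 6 without both 3-month controls, an alternative added after seeing the data. The causes were not tested.

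Sign changes at 3 months were Cry1 at -0.074 with summed transcripts and -0.33 with voom. Cry2 between control times was -0.06 and turned to 0.20 with summed transcripts. Per3 between exposed times turned from 0.0025 to -0.0030 with the 5 CPM filter and to -0.0020 with the groups alone.

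Replicate numbers did not pair the livers: correlations of same-numbered deviations were 0.0101 and -0.00893 at 3 months and -0.164 and -0.0578 at 9 months. With the replicate block 3 genes were called at 3 months and 1 between control times, where Per3 had an adjusted p of 0.0683, Cry2 turned to 0.059 and Per1 from -0.24 to 0.48.

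Leaving out each library, genes called ran from 3 to 1247 at 3 months (720 without control 2, 1247 without control 3), 0 to 1 at 9 months, 0 to 587 for the difference, 3 to 391 for the mean, 1 to 2339 between control times and 0 to 11 between exposed times. Of the 6 genes, 1 to 1, 0 to 0, 0 to 1, 1 to 2, 0 to 1 and 0 to 0 passed in these, in that order. Log2 fold changes ran at 3 months from -0.48 to 1.43 for Per1, -0.042 to 1.51 for Per2 and -1.07 to 1.92 for Cry1. For the difference they ran from -0.43 to 1.89 for Per1 and -2.37 to 0.62 for Cry1, and for the mean from -0.76 to 0.73 for Cry1. Between control times they ran from -1.28 to 1.03 for Per1 and -0.41 to 0.27 for Cry2, and between exposed times from -0.43 to 0.60 for Per3, -0.077 to 1.54 for Cry1 and -0.76 to 3.04 for Ciart. The order of mean TPM over all livers was unchanged with counts per relative length and with curated transcripts, but orders within groups were not. With curated transcripts Per3 was below Per1 in exposed livers of 3 months, Per1 passed Cry1 in 9-month controls, and Cry2 and Per1 overlapped in exposed livers of 9 months. With counts per relative length Cry2 and Cry1 overlapped in 9-month controls. With 2 controls per time and counts of 0 to 3 for Per3 and Ciart in several controls, fold changes against those controls are bounds or wide ratios.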
